A study of Homo sapiens with 12 samples.

Results

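The genes described here were close to silent in untreated HepG2 cells and were read in every library of cells given valproic acid (VPA). HepG2 is an established human liver cancer line. It was kept in low glucose (LG, 5.5 mM) or in high glucose for 48 h (HG, 20 mM), and cells of both media were also treated with 1 mM VPA for 12 h (LGV and HGV), with 3 libraries of poly(A) RNA per group. The sources used here leave unsaid if untreated cells were collected before these 12 h or after them, and whether the 3 libraries of a group came from separate cultures, so that p-values measure only the spread between these libraries, which may be technical. Members were chosen on their CPM (the reads of a gene scaled to a library of 1000000 counted reads). A member lay below 0.2 CPM in each of the 6 untreated libraries and reached at least 1 CPM in each of the 6 treated libraries. Of the 16389 genes of the deposited table, 66 met both limits. Leaving out 6 of them by symbol, the ion channels CACNA1G, KCNN1 and KCNS3, the receptor CHRM4, the syntaphilin gene SNPH and the noncoding LINC00883, left 60 genes. Since VPA against control chose these genes, their difference between treated and untreated cells is described below without a test. The comparison of HGV with LGV was tested, because the limits were the same in both groups. It is not free of the choice, since genes that reached 1 CPM only in the libraries of a single medium were left out. The calls and differences between HGV and LGV thus hold only for genes that reached it in both media.

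VPA is an anticonvulsant that inhibits histone deacetylases, the enzymes that take acetyl groups off histone tails. Acetylated histones are a mark of open, transcribed chromatin, whereas genes that a cell type does not use are often held by repressor complexes that carry a deacetylase. Inhibitors of these enzymes are known to raise genes of foreign cell types in cultured cells, neuronal genes among them. The genes below include a brain tubulin, a Wnt ligand, a B cell receptor chain and a connexin of liver, inner ear and skin, and no enrichment for a tissue was tested.

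Silence in the untreated cells was not complete. Over the 6 untreated libraries the members held between 1 read (PHOSPHO1) and 27 reads (PPM1J), with a median of 13 reads per gene. Between 29798442 and 45572694 reads were counted per library, so that 3 reads stood for 0.0658 to 0.101 CPM, and no member had more than 8 reads in any untreated library. The 60 genes together had 102, 152 and 143 reads in the LG libraries and 133, 164 and 134 reads in the HG libraries. They had 5563, 4787 and 5879 reads in the LGV libraries and 6861, 9971 and 7182 reads in the HGV libraries. The lowest treated library thus held many times the reads of the highest untreated one, as the choice of the genes requires. Per library, 12 to 17 members had 0 reads in LG and 3 to 11 in HG, and none had 0 reads with VPA. In bulk RNA, more cells that express a gene and more RNA per cell cannot be told apart.

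**Figure D1:**
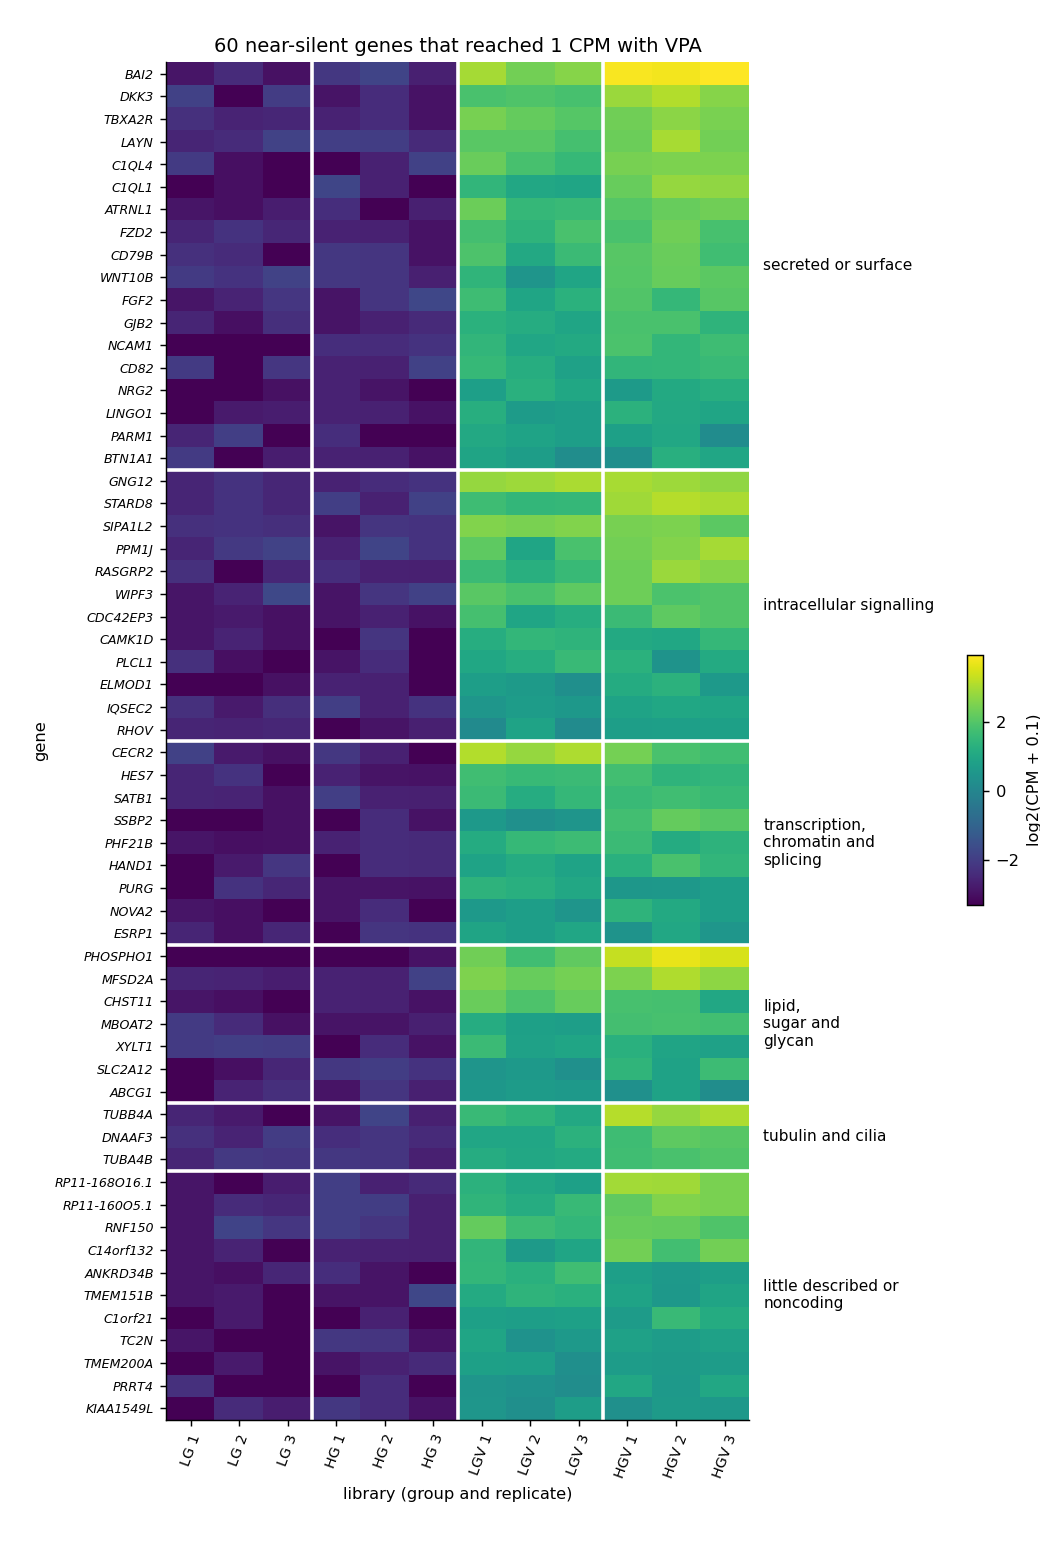
Each row is 1 of the 60 genes, each column 1 of the 12 libraries, and the colour gives log2(CPM + 0.1). Rows are grouped by known role and, within a group, ordered by the mean CPM over the 6 treated libraries. The untreated columns are dark throughout because the genes were chosen that way, while the treated columns differ between genes, with BAI2 and PHOSPHO1 brightest in HGV.

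The median member had 0.0439 to 0.0503 CPM in the LG libraries, 0.0547 to 0.0752 CPM in the HG libraries, 2.16 to 2.64 CPM in the LGV libraries and 3.20 to 3.47 CPM in the HGV libraries. From the reads of the 3 libraries of each group together, the ratio of HGV to HG ran from 17.1 (IQSEC2) to 1190 (PHOSPHO1), with a median of 53.0 over the 60 genes. The ratio of LGV to LG ran from 13.9 (WNT10B) to 257 (CHST11), with a median of 51.0 over the 58 genes with a read in LG. The extremes rest on few reads. PHOSPHO1 had 1 read over the HG libraries, and the exact 95% counting interval of its ratio was 212 to 46900, while CHST11 had 2 reads over the LG libraries and an interval of 70.8 to 2130. PHOSPHO1 and NCAM1 had 0 reads over the LG libraries. With the floor set at 3 reads over the group, their ratios of LGV to LG were 166 and 84.9, with the LGV reads taken as exact. The intervals cover counting error only, and the floors only that of the untreated reads. Neither covers the spread between cultures.

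Close to the limits the choice was fine. WIPF3, FGF2 and TMEM151B lay just inside the upper limit, with 0.196, 0.191 and 0.191 CPM in their highest untreated library, and TRIM7, PDZD4 and ATP6V0A4 just outside it, each with 0.201 CPM. RHOV, PARM1 and PRRT4 lay just inside the lower limit, with 1.02, 1.06 and 1.09 CPM in their lowest treated library, and ABCG4, C8orf47 and HAPLN3 just outside it, with 0.981, 0.976 and 0.976 CPM. Another 228 genes of the table were below 0.2 CPM in every untreated library and did not reach 1 CPM in every treated one. The table holds genes that averaged at least 10 reads over the 12 libraries, so genes that were silent with and without VPA are for the most part outside it. The lowest mean count of a member was 23.7 reads.

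Promoter sequences are shown for 6 members that differed between HGV and LGV, 4 higher and 2 lower in HGV, so that starts of genes with opposite differences can be set side by side. RefSeq gave the 250 bases before the start site, on GRCh38.p14, for 40 of the 60 members, taking the first start listed for each gene. Each is written in the direction of transcription, with matches to the searched motifs in capitals.
TUBB4A: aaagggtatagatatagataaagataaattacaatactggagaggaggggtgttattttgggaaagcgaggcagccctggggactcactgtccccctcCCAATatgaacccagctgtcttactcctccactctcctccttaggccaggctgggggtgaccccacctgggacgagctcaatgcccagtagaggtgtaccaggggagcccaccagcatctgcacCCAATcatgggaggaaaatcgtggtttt
STARD8: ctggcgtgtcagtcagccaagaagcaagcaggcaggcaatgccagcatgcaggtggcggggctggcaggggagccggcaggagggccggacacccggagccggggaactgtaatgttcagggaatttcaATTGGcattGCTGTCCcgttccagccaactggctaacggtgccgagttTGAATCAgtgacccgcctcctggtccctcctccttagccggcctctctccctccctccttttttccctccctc
PHOSPHO1: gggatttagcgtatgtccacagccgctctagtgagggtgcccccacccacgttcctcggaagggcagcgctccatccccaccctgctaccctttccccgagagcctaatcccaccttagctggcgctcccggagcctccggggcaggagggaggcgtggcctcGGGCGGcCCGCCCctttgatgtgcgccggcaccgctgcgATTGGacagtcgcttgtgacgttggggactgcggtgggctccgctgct
BAI2: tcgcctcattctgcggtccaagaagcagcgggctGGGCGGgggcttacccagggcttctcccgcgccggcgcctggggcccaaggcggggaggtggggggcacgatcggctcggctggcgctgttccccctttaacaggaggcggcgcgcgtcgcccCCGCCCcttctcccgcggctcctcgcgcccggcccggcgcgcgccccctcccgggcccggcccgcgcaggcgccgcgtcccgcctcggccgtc
CECR2: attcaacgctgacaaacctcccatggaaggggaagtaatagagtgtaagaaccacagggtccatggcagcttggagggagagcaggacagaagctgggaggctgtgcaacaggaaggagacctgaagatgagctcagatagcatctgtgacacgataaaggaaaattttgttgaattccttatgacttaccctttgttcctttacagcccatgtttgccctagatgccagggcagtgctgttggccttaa
ANKRD34B: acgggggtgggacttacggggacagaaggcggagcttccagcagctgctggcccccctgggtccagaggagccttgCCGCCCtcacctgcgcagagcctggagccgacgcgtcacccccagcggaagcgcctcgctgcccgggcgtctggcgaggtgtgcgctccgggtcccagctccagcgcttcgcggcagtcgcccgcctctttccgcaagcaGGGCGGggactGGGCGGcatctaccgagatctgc
The windows lie at chr19:6502849-6503098 (minus strand) for TUBB4A, chrX:68647416-68647665 (plus) for STARD8, chr17:49230788-49231037 (minus) for PHOSPHO1, chr1:31764341-31764590 (minus) for BAI2, chr22:17359699-17359948 (plus) for CECR2 and chr5:80570281-80570530 (minus) for ANKRD34B. The capitals mark CCAAT boxes in TUBB4A, a CCAAT box, a match to the right part of the REST site and an AP-1 site in STARD8, GC boxes and a CCAAT box in PHOSPHO1, and GC boxes in BAI2 and ANKRD34B. CECR2 holds none of the letters searched.

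The promoters of the members were rich in G and C but a little poorer in CpG than those of other genes. Their median GC content was 67.6%, against 64.8% in the 11096 other genes of the table with an entry. The ratio of observed to expected CpG had a median of 0.693 in the members and 0.814 in the other genes, and ran from 0.0682 in TC2N to 0.977 in ATRNL1. More than 50% GC with a CpG ratio above 0.6, a usual definition of a CpG island, was met by 25 of the 40 promoters (62.5%) and by 74.5% of the other genes. The most like genes, 152 others that were also below 0.2 CPM in every untreated library, had a median GC content of 65.4% and a median CpG ratio of 0.697, and 57.9% met the definition. The members were thus close to other near-silent genes in CpG content, and no test was made, since the genes were chosen by their counts.

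**Figure D2:**
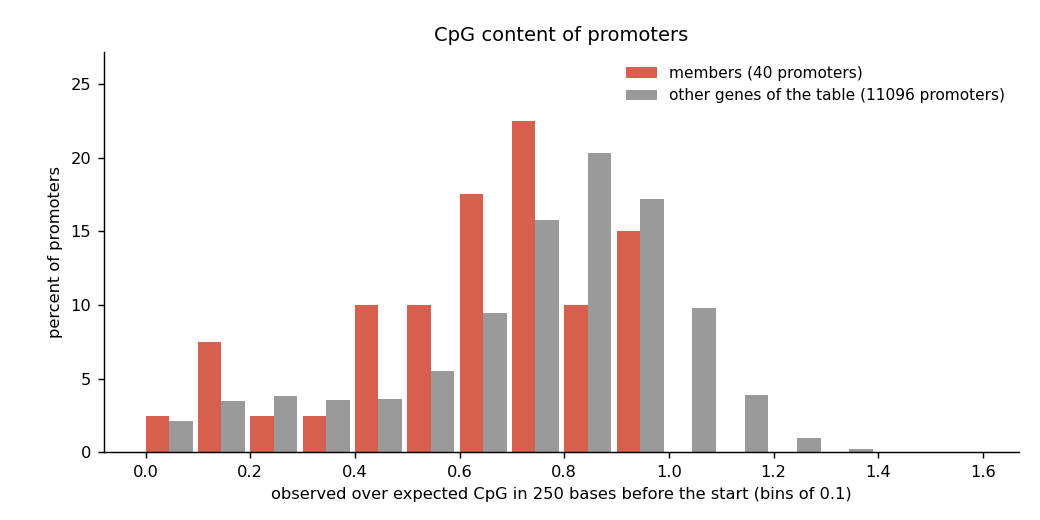
Bars give the percent of promoters (vertical axis) in bins of 0.1 of the observed over expected CpG ratio (horizontal axis), for 40 members (red) and 11096 other genes of the table (grey). The members' tallest bar, 22.5%, is the bin that starts at 0.7, and that of the other genes, 20.3%, the bin that starts at 0.8.

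Motifs were searched on both strands as exact letters. The GC box, GGGCGG, to which SP1 family factors bind, occurred in 24 of the 40 promoters (60.0%) and in 66.4% of the other genes. The CCAAT box, CCAAT, occurred in 10 (25.0%) against 35.0%, and the TATA box, TATAAA, in 1 (2.50%, TUBA4B) against 5.50%. The AP-1 site, TGANTCA, occurred in 3 (7.50%, LINGO1, SLC2A12 and STARD8) against 3.90%, the E-box CACGTG in 1 (2.50%, LINGO1) against 8.74%, and the cyclic AMP response element, TGACGTCA, in none against 2.84%. REST is a repressor that recruits deacetylases to neuronal genes through a long site with a left and a right part. The left part, TCAGCACC, was in none of the 40 promoters against 1.19% of the other genes, and the right part, GGACAGC, in 4 (10.0%, GNG12, LINGO1, RASGRP2 and STARD8) against 5.24%. With 40 promoters, 1 gene is 2.50%, so these shares differ by a handful of genes. A match is a run of letters and not a bound site, and the absence of one speaks only of these 250 bases.

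The members were sorted into 6 groups by their known roles, after their values had been seen, so the counts per group are a description. Levels are given as the mean CPM ± SD of 3 libraries. Levels of different genes are compared per kb of exon, which was known for 59 members. The mean over the 6 treated libraries ran from 0.0991 CPM per kb (KIAA1549L) to 3.30 CPM per kb (PHOSPHO1), with a median of 0.492, against a median of 3.00 CPM per kb for the 16082 placed genes of the table. Even with VPA the members were therefore at the low end of the expressed genes. HGV was compared with LGV with edgeR's quasi-likelihood test, adjusted by the Benjamini-Hochberg method over the 16208 genes tested (FDR), and a gene was called at an FDR of 0.05 or less. Over all tested genes 21.2% were called higher and 19.5% lower in HGV (40.7% in either direction), and 18 (30.0%) and 4 (6.67%) of the 60 members.

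Secreted and surface proteins formed the first and widest group, with 18 genes. Of these, 5 were higher in HGV (BAI2, C1QL1, C1QL4, DKK3 and WNT10B), none was lower and 13 were not called. BAI2 (ENSG00000121753), an adhesion G protein-coupled receptor found mainly in brain, lies on chromosome 1 of GRCh37 from 32192718 to 32230494, on the minus strand. It had 1, 4 and 1 reads in LG and 4, 6 and 2 in HG, and 7.78, 5.26 and 6.13 CPM in LGV and 14.8, 14.2 and 15.5 CPM in HGV. Every HGV library was above every LGV library, with a log2 fold change of 1.14 (SE 0.157, edgeR FDR 3.02e-05). From the pooled reads BAI2 was 125 times as high in HGV as in HG (95% counting interval 71.5 to 243) and 123 times as high in LGV as in LG (56.2 to 337), and its 2 GC boxes lie in the promoter printed above.

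C1QL1 (ENSG00000131094) and C1QL4 (ENSG00000186897) encode secreted C1q-like proteins, of which C1QL1 is known as a ligand at cerebellar synapses. C1QL1 had 0, 1 and 0 reads in LG and 6, 2 and 0 in HG, and 2.66, 1.95 and 1.85 CPM in LGV and 4.73, 6.91 and 6.59 CPM in HGV. The HGV libraries lay above all LGV libraries, with a log2 fold change of 1.42 (SE 0.220, edgeR FDR 8.13e-05). C1QL4 had 4, 1 and 0 reads in LG and 0, 2 and 6 in HG, and 4.79, 3.46 and 2.83 CPM in LGV and 5.47, 5.69 and 5.66 CPM in HGV. Its groups did not overlap either, though the gap was small, with a log2 fold change of 0.53 (SE 0.202, edgeR FDR 0.0445). This call was lost in 7 of 14 alternatives, among them the fit of 12 libraries and leaving out any library but LGV replicate 1, with an FDR of up to 0.249. Per length these were among the highest members, with 2.70 CPM per kb for C1QL1 and 2.24 CPM per kb for C1QL4.

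Wnt signalling was represented by a ligand, a receptor and a Dickkopf family member. WNT10B, a ligand that drives bone formation and restrains fat cell formation, had 1.92 ± 0.671 CPM in LGV and 4.34 ± 0.371 CPM in HGV, with a log2 fold change of 1.11 (SE 0.237, edgeR FDR 0.00127). FZD2, a Frizzled receptor for Wnt proteins, had 3.15 ± 0.526 CPM in LGV and 4.04 ± 0.915 CPM in HGV, and its groups overlapped. DKK3 (ENSG00000050165), a secreted protein of the Dickkopf family, had 5, 0 and 6 reads in LG and 1, 3 and 1 in HG, and 3.55, 3.78 and 3.51 CPM in LGV and 7.18, 8.68 and 6.08 CPM in HGV. All 3 HGV libraries of DKK3 were above the LGV libraries, with a log2 fold change of 0.93 (SE 0.197, edgeR FDR 0.00111). DKK3 shares exon bases with USP47, which runs on the opposite strand, and the sources do not say if strand was used in the counting. USP47 itself had 29.3 CPM in HGV and 41.1 CPM in LGV, the opposite order to DKK3.

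Receptors of blood cells and vessels were also present. TBXA2R (ENSG00000006638), the receptor of thromboxane A2 that activates platelets and contracts smooth muscle, had 3, 3 and 3 reads in LG and 2, 3 and 1 in HG, and 5.48, 4.60 and 3.98 CPM in LGV and 5.17, 6.39 and 5.50 CPM in HGV. The LGV and HGV libraries of TBXA2R overlapped. CD79B (ENSG00000007312), a signalling chain of the B cell receptor, had 3, 4 and 0 reads in LG and 4, 4 and 1 in HG, and 3.68, 2.01 and 3.05 CPM in LGV and 4.13, 4.80 and 3.21 CPM in HGV, again with overlap. LAYN (ENSG00000204381), layilin, a receptor for hyaluronan, had 2, 4 and 7 reads in LG and 5, 5 and 3 in HG, and 4.20, 4.19 and 3.43 CPM in LGV and 4.93, 7.98 and 5.18 CPM in HGV. Here the ranges were apart, but the difference did not reach the threshold, with a log2 fold change of 0.54 (SE 0.218, edgeR FDR 0.0557). Per length the levels were 1.83 CPM per kb for TBXA2R, 1.64 CPM per kb for CD79B and 1.59 CPM per kb for LAYN.

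None of the other surface and secreted genes was called. ATRNL1, an attractin-like membrane protein, had 3.57 ± 1.21 CPM in LGV and 4.61 ± 0.535 CPM in HGV. FGF2, a growth factor for fibroblasts and vessels, had 2.47 ± 0.650 CPM in LGV and 3.58 ± 0.694 CPM in HGV, and its exons overlap those of NUDT6 on the other strand. NUDT6 had 1.49 CPM in LGV and 2.41 CPM in HGV, the same order as FGF2, and whether reads were shared was not tested. NRG2, a neuregulin that binds ERBB receptors, had 1.98 ± 0.381 CPM in LGV and 1.94 ± 0.417 CPM in HGV. ATRNL1, FGF2 and NRG2 overlapped between the groups. NCAM1, the neural cell adhesion molecule, had 2.21 ± 0.426 CPM in LGV and 3.18 ± 0.445 CPM in HGV, and GJB2, a gap junction connexin of liver, inner ear and skin, had 2.14 ± 0.274 CPM in LGV and 3.23 ± 0.572 CPM in HGV. Both had ranges that were apart, with HGV above, and neither was called. CD82, a tetraspanin, had 2.25 ± 0.568 CPM in LGV and 2.77 ± 0.163 CPM in HGV. LINGO1, a co-receptor that restrains myelination, had 1.79 ± 0.411 CPM in LGV and 2.11 ± 0.304 CPM in HGV. BTN1A1, a butyrophilin of milk fat, had 1.49 ± 0.365 CPM in LGV and 1.79 ± 0.605 CPM in HGV, and PARM1, a mucin-like membrane protein, had 1.79 ± 0.199 CPM in LGV and 1.57 ± 0.462 CPM in HGV. All of these overlapped, and PARM1 was among the members whose lowest library was closest to 1 CPM.

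Intracellular signalling proteins were the next group, with 12 genes, of which 3 were higher in HGV (STARD8, RASGRP2 and PPM1J), none was lower and 9 were not called. Small GTPases and their regulators were 6 of the 12. STARD8 (ENSG00000130052), a GTPase-activating protein, which switches small GTPases off, lies on chromosome X of GRCh37 from 67867508 to 67945684, on the plus strand. It had 2, 5 and 3 reads in LG and 5, 2 and 6 in HG, and 3.15, 2.71 and 2.81 CPM in LGV and 7.55, 8.80 and 8.04 CPM in HGV. The LGV libraries lay close together and far below the HGV libraries, with a log2 fold change of 1.41 (SE 0.183, edgeR FDR 1.65e-05). RASGRP2 (ENSG00000068831), an exchange factor that activates Rap1 in platelets, had 3, 0 and 3 reads in LG and 3, 2 and 2 in HG, and 3.05, 2.33 and 2.91 CPM in LGV and 5.03, 7.14 and 6.11 CPM in HGV. It was higher in every HGV library, with a log2 fold change of 1.06 (SE 0.205, edgeR FDR 5.48e-04). PPM1J (ENSG00000155367), a serine/threonine phosphatase of the PP2C family, had 2, 6 and 7 reads in LG and 2, 6 and 4 in HG, and 4.37, 1.83 and 3.54 CPM in LGV and 5.24, 5.97 and 7.75 CPM in HGV. LGV replicate 2 was the lowest library and gave PPM1J the widest relative spread of any member in LGV (coefficient of variation 40.1%), with a log2 fold change of 0.89 (SE 0.243, edgeR FDR 0.00732).

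GNG12 (ENSG00000172380), a gamma subunit of heterotrimeric G proteins, had levels in the 2 media that differed by less than the spread between libraries. It had 2, 5 and 3 reads in LG and 2, 3 and 4 in HG, and 6.90, 7.37 and 8.04 CPM in LGV and 7.89, 7.34 and 6.69 CPM in HGV. The log2 difference of HGV from LGV was -0.12, with an approximate 95% interval of -0.45 to 0.22. SIPA1L2, of a family of GTPase-activating proteins for Rap, had 5.81 ± 0.206 CPM in LGV and 5.14 ± 0.726 CPM in HGV, with a difference of -0.26 (interval -0.62 to 0.10). WIPF3, a WASP-interacting protein of the actin skeleton, had 4.04 ± 0.397 CPM in LGV and 4.15 ± 0.741 CPM in HGV, with a difference of -0.05 (interval -0.44 to 0.34), the sign being that of the fit, which scales the libraries, where the plain CPM do not. For these 3 genes the intervals leave out a difference of 2-fold in either direction.

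The rest of the group was not called. CDC42EP3, an effector of Cdc42, had 2.49 ± 0.825 CPM in LGV and 3.75 ± 0.664 CPM in HGV. CAMK1D, a calcium/calmodulin-dependent kinase, had 2.52 ± 0.260 CPM in LGV and 2.25 ± 0.476 CPM in HGV, and PLCL1, a phospholipase C-like protein without enzyme activity, had 2.38 ± 0.531 CPM in LGV and 1.92 ± 0.605 CPM in HGV. ELMOD1, a GTPase-activating protein for ARL proteins, had 1.41 ± 0.240 CPM in LGV and 2.02 ± 0.520 CPM in HGV. All 4 overlapped between the groups. IQSEC2, an exchange factor for Arf proteins at synapses, had 1.42 ± 0.117 CPM in LGV and 1.84 ± 0.0685 CPM in HGV. RHOV, an atypical small GTPase, had 1.27 ± 0.425 CPM in LGV and 1.62 ± 0.0475 CPM in HGV. IQSEC2 had ranges that were apart and RHOV did not, and neither was called.

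Transcription, chromatin and splicing factors numbered 9. Of these, SSBP2 was higher in HGV, CECR2 and PURG were lower, and 6 were not called. SSBP2 (ENSG00000145687), a cofactor that stabilises LDB1 complexes, lies on chromosome 5 of GRCh37 from 80708623 to 81047616, on the minus strand. It had 0, 0 and 1 reads in LG and 0, 3 and 1 in HG, and 1.41, 1.16 and 1.28 CPM in LGV and 3.29, 4.62 and 4.08 CPM in HGV. The highest LGV library was below the lowest HGV library by a wide margin, with a log2 fold change of 1.56 (SE 0.236, edgeR FDR 6.90e-05). CECR2 (ENSG00000099954), a bromodomain protein of ISWI remodelling complexes that binds acetylated histones, lies on chromosome 22 of GRCh37 from 17840839 to 18037852, on the plus strand. It had 5, 2 and 1 reads in LG and 4, 2 and 0 in HG, and 8.60, 6.93 and 8.25 CPM in LGV and 5.37, 3.58 and 3.21 CPM in HGV. CECR2 went the other way from most members, with every HGV library below every LGV library and a log2 fold change of -1.06 (SE 0.201, edgeR FDR 4.81e-04). PURG, a purine-rich element binding protein, had 2.26 ± 0.273 CPM in LGV and 1.44 ± 0.146 CPM in HGV, also with ranges apart and a log2 fold change of -0.74 (SE 0.245, edgeR FDR 0.0225), a call that was lost without LGV replicate 2 or HGV replicate 1 (FDR up to 0.0891).

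HES7 (ENSG00000179111), a repressor of the somite clock, had 2, 5 and 0 reads in LG and 2, 1 and 1 in HG, and 3.22, 2.90 and 3.00 CPM in LGV and 3.26, 2.56 and 2.67 CPM in HGV. Its groups overlapped, and per length it was the highest of the transcription factors, with 1.56 CPM per kb. HAND1, a basic helix-loop-helix factor of heart and trophoblast, had 1.89 ± 0.213 CPM in LGV and 2.85 ± 0.611 CPM in HGV, with ranges apart and no call. SATB1, an organiser of chromatin loops in T cells, had 2.69 ± 0.437 CPM in LGV and 3.03 ± 0.155 CPM in HGV. In the annotation used here its exons overlap those of TBC1D5 on the same strand, so that reads shared there could not be assigned by strand. TBC1D5 had 63.0 CPM in LGV and 71.2 CPM in HGV, the same order. With VPA its log2 fold change was -0.56 in LG and -0.52 in HG (edgeR FDR 7.91e-04 and 0.00295). PHF21B, a PHD finger protein, had 2.68 ± 0.490 CPM in LGV and 2.58 ± 0.459 CPM in HGV. The splicing factors were on either side. NOVA2, a neuronal splicing regulator, had 1.44 ± 0.163 CPM in LGV and 2.08 ± 0.489 CPM in HGV, with ranges apart, and ESRP1, an epithelial splicing regulator, had 1.76 ± 0.142 CPM in LGV and 1.51 ± 0.397 CPM in HGV, with overlap. Neither was called.

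Genes of lipid, sugar and glycan metabolism numbered 7, of which 3 were higher in HGV (PHOSPHO1, MBOAT2 and SLC2A12), 1 was lower (CHST11) and 3 were not called. PHOSPHO1 (ENSG00000173868), the phosphocholine phosphatase that supplies phosphate for bone mineralisation, lies on chromosome 17 of GRCh37 from 47300728 to 47308149, on the minus strand. It had 0, 0 and 0 reads in LG and 0, 0 and 1 in HG, and 5.15, 3.21 and 4.47 CPM in LGV and 10.0, 13.2 and 11.3 CPM in HGV. No other member had so few reads without VPA, and none had so high a level per length with it, 3.30 CPM per kb over the treated libraries. The HGV libraries were all above the LGV libraries, with a log2 fold change of 1.35 (SE 0.187, edgeR FDR 2.96e-05).

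MFSD2A (ENSG00000168389), a transporter of lysophosphatidylcholine into brain and eye, had 2, 3 and 2 reads in LG and 2, 2 and 6 in HG, and 5.81, 4.72 and 5.37 CPM in LGV and 5.70, 8.38 and 6.56 CPM in HGV. These ranges overlapped and MFSD2A was not called. MBOAT2, an acyltransferase that remodels phospholipids, had 1.82 ± 0.335 CPM in LGV and 3.39 ± 0.102 CPM in HGV, with a log2 fold change of 0.82 (SE 0.223, edgeR FDR 0.00689), and an FDR of 0.0502 without LGV replicate 3. SLC2A12, a glucose transporter of the GLUT family, had 1.29 ± 0.123 CPM in LGV and 2.47 ± 0.697 CPM in HGV, with a log2 fold change of 0.84 (SE 0.269, edgeR FDR 0.0188). The call was lost without LGV replicate 3, HGV replicate 1 or HGV replicate 3 (FDR up to 0.108). SLC2A12 shares exon bases with TBPL1 on the other strand. TBPL1, a TBP-like factor, rose with VPA by 1.11 on the log2 scale in LG and by 0.69 in HG (edgeR FDR 1.44e-05 and 6.17e-04), and was higher in LGV (38.0 CPM) than in HGV (27.4 CPM), the opposite order to SLC2A12. CHST11, which sulphates chondroitin, had 4.42 ± 0.641 CPM in LGV and 2.95 ± 0.856 CPM in HGV, with a log2 fold change of -0.66 (SE 0.232, edgeR FDR 0.0300). Its call was lost without LGV replicate 1, LGV replicate 3 or HGV replicate 3, the last taking the difference from -0.66 to -0.43 (FDR up to 0.163). XYLT1, which starts the sugar chains of proteoglycans, had 2.19 ± 0.748 CPM in LGV and 1.96 ± 0.345 CPM in HGV, and ABCG1, an exporter of cholesterol, had 1.42 ± 0.0827 CPM in LGV and 1.33 ± 0.338 CPM in HGV. Both overlapped between the groups.

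Tubulins and a cilium gene formed the smallest group, and all 3 were higher in HGV. TUBB4A (ENSG00000104833), a beta-tubulin of brain, lies on chromosome 19 of GRCh37 from 6494330 to 6502859, on the minus strand. It had 2, 2 and 0 reads in LG and 1, 6 and 2 in HG, and 2.99, 2.58 and 1.99 CPM in LGV and 8.73, 6.94 and 8.29 CPM in HGV. It had the smallest p of the 60 genes, with a log2 fold change of 1.58 (SE 0.199, edgeR FDR 1.25e-05). TUBA4B (ENSG00000243910) had 2, 6 and 5 reads in LG and 4, 4 and 2 in HG, and 2.17, 1.95 and 2.10 CPM in LGV and 3.19, 3.56 and 3.86 CPM in HGV. The ranges were apart, with a log2 fold change of 0.68 (SE 0.215, edgeR FDR 0.0165), and the call was lost without LGV replicate 3 or without HGV replicate 3 (FDR up to 0.0635). TUBA4B shares exon bases with TUBA4A, an alpha-tubulin gene on the other strand, which had 8.56 CPM in LGV and 22.9 CPM in HGV against 3.35 CPM in LG and 3.47 CPM in HG. TUBA4A rose with VPA by 1.19 on the log2 scale in LG and by 2.60 in HG (edgeR FDR 5.82e-04 and 3.35e-07). HGV was above LGV in both TUBA4A and TUBA4B. Without VPA, TUBA4A had nearly the same level in HG and LG, and TUBA4B had 10 reads over the HG libraries and 13 over the LG libraries. Whether reads of one were counted on the other was not tested. DNAAF3, which helps to assemble the dynein arms of cilia, had 2.07 ± 0.330 CPM in LGV and 3.86 ± 0.628 CPM in HGV, with a log2 fold change of 0.81 (SE 0.230, edgeR FDR 0.00902).

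Genes with little known function and noncoding RNAs made up the last group of 11, with 3 higher in HGV (RP11-168O16.1, RP11-160O5.1 and C14orf132), 1 lower (ANKRD34B) and 7 not called. RP11-168O16.1 (ENSG00000229191) lies on chromosome 1 of GRCh37 from 200993077 to 200997920, on the plus strand. It had 1, 0 and 2 reads in LG and 5, 2 and 3 in HG, and 2.46, 1.95 and 1.66 CPM in LGV and 7.62, 7.53 and 5.53 CPM in HGV. It had the largest log2 difference of the members, with a log2 fold change of 1.69 (SE 0.216, edgeR FDR 1.38e-05). RP11-160O5.1 had 2.56 ± 0.362 CPM in LGV and 5.31 ± 0.773 CPM in HGV, with a log2 fold change of 0.97 (SE 0.208, edgeR FDR 0.00130), and was the 1 member that the annotation used here did not place. C14orf132 had 2.00 ± 0.603 CPM in LGV and 4.57 ± 1.14 CPM in HGV, with a log2 fold change of 1.11 (SE 0.244, edgeR FDR 0.00154). ANKRD34B, an ankyrin repeat protein, had 2.76 ± 0.414 CPM in LGV and 1.56 ± 0.122 CPM in HGV, with a log2 fold change of -0.92 (SE 0.235, edgeR FDR 0.00478). All 4 had ranges that were apart.

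The 7 genes of this group that were not called are known mainly by their sequence. RNF150, a RING finger protein, had 3.49 ± 1.03 CPM in LGV and 4.36 ± 0.526 CPM in HGV, with overlap. TMEM151B had 2.34 ± 0.258 CPM in LGV and 1.65 ± 0.244 CPM in HGV, with LGV above HGV in every library and no call, and its exons overlap those of AARS2 on the other strand, which had 15.3 CPM in LGV and 25.9 CPM in HGV, the opposite order. PRRT4 had 1.19 ± 0.0957 CPM in LGV and 1.78 ± 0.295 CPM in HGV, with HGV above and no call. In the rest the groups overlapped. C1orf21 had 1.65 ± 0.0367 CPM in LGV and 2.20 ± 0.727 CPM in HGV. TC2N had 1.48 ± 0.326 CPM in LGV and 1.65 ± 0.0960 CPM in HGV. TMEM200A had 1.49 ± 0.296 CPM in LGV and 1.52 ± 0.0441 CPM in HGV, and KIAA1549L had 1.33 ± 0.210 CPM in LGV and 1.34 ± 0.150 CPM in HGV.

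With VPA in both media, the members were thus more often higher than lower in HGV. In CPM without scaling factors, the mean was higher in HGV than in LGV for 44 of the 60 genes. The share over all genes was not counted. WIPF3, KIAA1549L and TMEM200A are among the 44, though their difference was negative in the fit, which scales the libraries. The HGV range lay above the LGV range for 25 genes, against 30.0% of all tested genes, and the LGV range above the HGV range for 5, against 21.0%. For the other 30 genes the ranges overlapped. The median log2 difference was 0.30 in the members and 0.01 over all tested genes, and ran from -1.06 (CECR2) to 1.69 (RP11-168O16.1). Without scaling factors the median over all tested genes was 0.095 in place of 0.010. Genes of like abundance also tended to be higher in HGV. Of 4099 other genes whose mean CPM with VPA lay within the range of the members, 30.9% were called higher and 11.3% lower, so the share of 30.0% of the members is near the background and is not a result about these genes. At an unadjusted p under 0.05, 26 members differed, a number for which the share over all genes was not counted. DESeq2 called 22, as did edgeR. Leaving out LGV replicate 3 took the number called to 17 and leaving out LGV replicate 1 took it to 24.

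**Figure D3:**
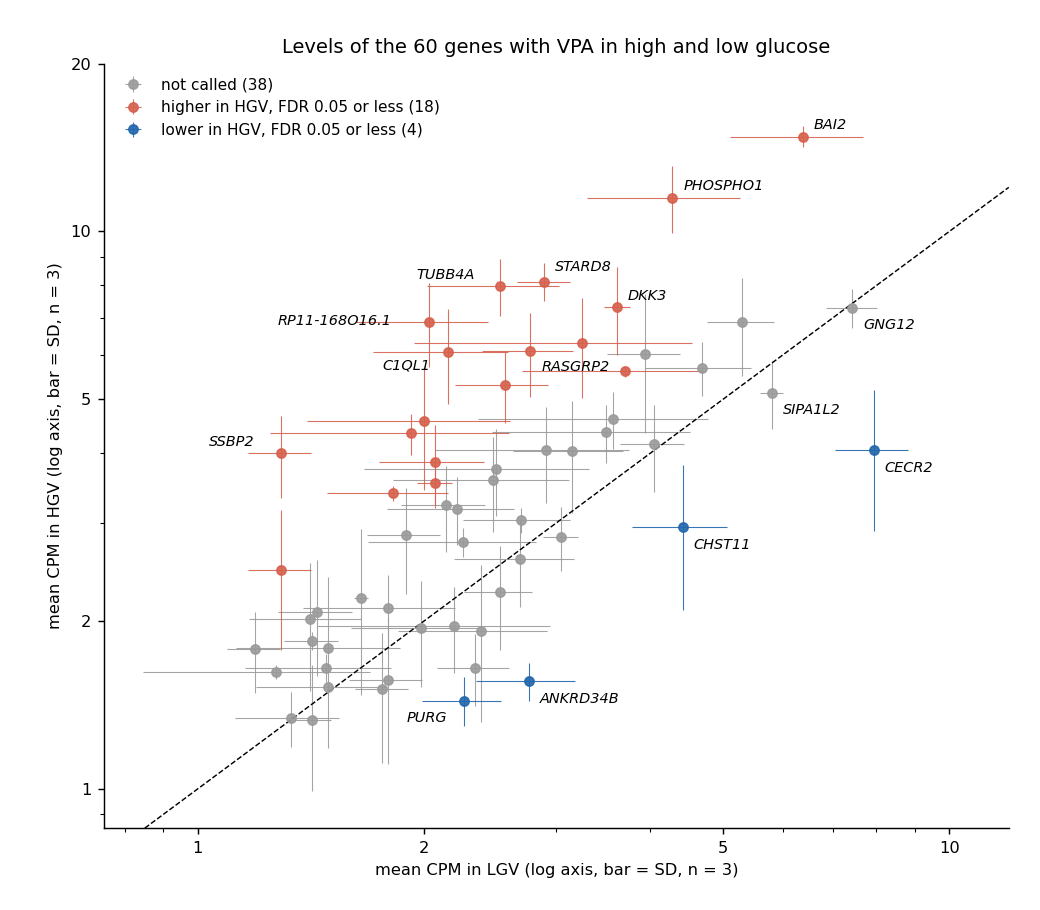
Each point is 1 of the 60 genes, with its mean CPM in LGV (horizontal, log axis) and in HGV (vertical, log axis), bars of 1 SD (n = 3) and the line of equal levels dashed. The 18 genes called higher in HGV (red) lie above the line, the 4 called lower (blue) below it, and the 38 not called (grey) along it.

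**Figure D4:**
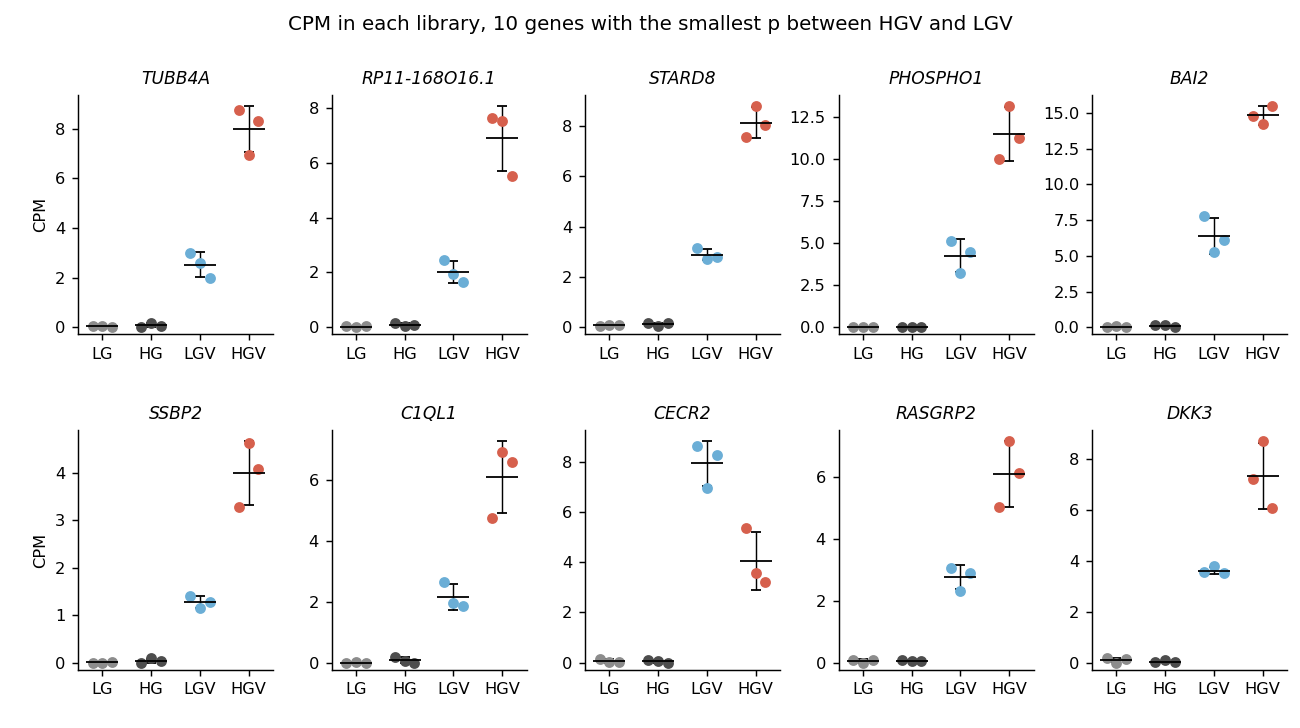
The panels show the CPM in each library (points) of the 10 members with the smallest p in the comparison of HGV with LGV, together with the mean and SD (n = 3, black), in LG, HG, LGV and HGV. In 9 panels the HGV points are the highest, and in that of CECR2 the LGV points are.

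The difference between the media without VPA rests on few reads, and the choice of the genes kept both groups below 0.2 CPM, so that the number called says little about them. Among the members, HG against LG gave 2 genes that were higher and none that was lower in the edgeR fit of all 12 libraries, while over the 16389 genes tested 11.5% were higher and 14.3% lower. NCAM1 had 0, 0 and 0 reads in LG and 3, 3 and 4 reads in HG, so that every HG library held more reads than every LG library (edgeR FDR 0.00391). With LG set at the floor of 3 reads over its libraries, the ratio of HG to LG for NCAM1 was 3.81. That value takes the few HG reads as exact, so it is not a lower bound. TC2N had 1, 0 and 0 reads in LG and 4, 4 and 1 reads in HG, with an overlap at 1 read (edgeR FDR 0.0413). Its ratio from pooled reads was 10.3, with a 95% counting interval of 1.43 to 451, and with 1 library left out its FDR reached 0.153. XYLT1 lay the other way and just missed the threshold, with 17 reads over the LG libraries and 4 over the HG libraries (edgeR FDR 0.0512). The pooled ratio of XYLT1 was 0.269, with an interval of 0.0658 to 0.824. At an unadjusted p under 0.05, 6 members differed, without a count over all genes to set beside it, and DESeq2 called 1.

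A difference between the media in the response to VPA was tested as an interaction term, glucose by VPA, in the fit of 12 libraries. The edgeR quasi-likelihood test called 0 of the 60 members, against 0.0427% of the 16389 genes (7 genes), and DESeq2 also called 0. At an unadjusted p under 0.05 there were 7 members by edgeR and 6 by DESeq2. How many of all genes had such a p was not counted, so these numbers are not a result about the members. NCAM1 had the smallest p of the members (edgeR FDR 0.132), and its LG libraries are at 0 reads, so that its fitted difference depends on the prior count. The others with an unadjusted p under 0.05 by edgeR were WNT10B, TC2N, MBOAT2, DKK3, XYLT1 and TMEM151B. This test rests on the 1 to 27 reads per member over the untreated libraries, and the interval of GNG12, for example, ran from -1.32 to 1.27 on the log2 scale.

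Other genes that mark foreign tissues or the liver were counted beside the members, from lists that hold none of them. The table keeps genes that averaged at least 10 reads over the 12 libraries, treated ones included. A marker near silent without VPA could therefore enter only through its treated libraries. For such markers a higher level with VPA is fixed in advance, so the counts are a description. Over all tested genes 25.8% were higher and 20.2% lower with VPA in HG, and 21.7% and 19.9% in LG. Of 16 neuronal genes, 5 were tested in HG, of which 3 were higher with VPA and none lower, and 6 in LG, of which 4 were higher and none lower. SYP, synaptophysin of synaptic vesicles, rose from 6.99 to 41.8 CPM in HG (log2 fold change 2.45, SE 0.153, edgeR FDR 1.30e-07), and INA, a neurofilament protein, from 0.773 to 3.99 CPM (2.23, SE 0.242). UCHL1, a deubiquitinase of neurons, had 0.00911 CPM in HG and 0.659 CPM in HGV, below the limit of 1 CPM that the members met. Of 10 measured targets of REST, 5 were higher and none lower in HG, and 6 were higher and 1 lower in LG, UNC13A and VGF among the higher in HG, with log2 fold changes of 2.12 and 1.66. SYP and INA stand in both lists.

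Markers of other lineages were few in the table, and the same limit holds for them. Of 7 striated muscle genes, 2 were higher in HG and 3 in LG, led by TNNT1, slow troponin T, from 0.829 to 11.9 CPM in HG (log2 fold change 3.72, SE 0.204, edgeR FDR 5.18e-08). Of 5 blood genes, 2 were higher in each medium and 1 was lower in HG, with GATA1 at 1.44 CPM in HGV. Of 4 germ line genes, 2 were higher in each medium and 1, SYCP3, was lower in HG, and PRAME rose by 1.57 on the log2 scale in HG. TIE1, 1 of 2 endothelial genes, was higher in both media. The fibroblast genes PDGFRA and COL1A1 were both higher in HG, at 1.10 and 2.13 CPM in HGV, and the 1 tested in LG was higher there. Most of these markers stayed, like the members, at a few CPM with VPA.

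The liver identity of the cells was plain in all 12 libraries. The summed level of 12 hepatocyte genes was 54900 to 64200 CPM in LG, 62100 to 69000 CPM in HG, 46700 to 50800 CPM in LGV and 58200 to 76600 CPM in HGV. With VPA, 9 of the 12 were lower and none higher in LG, and 4 were lower and 1 higher in HG. HNF4A, a transcription factor of the hepatocyte, fell by 0.46 on the log2 scale in HG (edgeR FDR 0.00141). TTR, the 1 gene of the list that was higher in HG, rose by 0.51 (edgeR FDR 0.00914). The summed level was thus below all LG libraries in LGV, while the HGV and HG libraries overlapped, and the part of this in the members' levels was not tested. Of 5 genes known to respond to deacetylase inhibitors, 1 was higher (CDKN1A, log2 fold change 0.44, SE 0.131) and 1 lower (TGFBR2, -0.62, SE 0.104) in HG, and 1 was lower in LG. H1F0, the histone H1.0 gene, had 2150 CPM in HG and 2740 CPM in HGV and was not called (edgeR FDR 0.114).

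The members were spread over the genome. On GRCh37, 59 genes could be placed, on 20 chromosomes, with 7 genes each on chromosomes 1 and 11. Of these, 58 were protein coding (98.3%), against 82.4% of all placed genes and 89.4% of the near-silent genes that did not reach 1 CPM. The choice by symbol took the noncoding LINC00883 out of the members, and no symbols were left out of the genes compared. The higher share is thus partly fixed by the choice. The median span of the members was 65.0 kb against 26.1 kb for other placed genes, a smaller share of which is protein coding. Of the 59 placed members, 20 were over 100 kb, and the range was 2.02 kb (RHOV) to 855 kb (ATRNL1). The exons summed to a median of 5.56 kb against 4.71 kb. The limit of 1 CPM was not scaled to length, and the near-silent genes that did not reach it were not compared in length. What these add to the differences in length was not tested. Within 1 Mb of each other lay WNT10B and C1QL4 on chromosome 12 (360.674 kb apart), FZD2 and C1QL1 on chromosome 17 (398.431 kb) and ANKRD34B and SSBP2 on chromosome 5 (842.524 kb). The last pair differed in opposite directions between HGV and LGV.

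The nearest measured genes on either side of the members, 118 in all, were compared in the same way, leaving out those under the mean count of 10. With VPA in HG, 39 of 116 were higher (33.6%) and 21 lower (18.1%), and in LG 36 of 115 were higher (31.3%) and 16 lower (13.9%), against the 25.8% and 21.7% higher over all genes given above. Their median log2 fold change was 0.16 in HG and 0.13 in LG, against 0.02 and -0.01 over all tested genes. The members' own ratios were set by the choice of the genes, so these shifts cannot be weighed against them. Both comparisons are without a test of the list. Between HGV and LGV, 27 of the 118 were higher (22.9%) and 30 lower (25.4%), near the shares of all genes.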

How the data were processed

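The 12 libraries were grouped by their labels into LG, HG, LGV and HGV, 3 each, and no batch is named in the sources used here. The authors trimmed the 50 nt single-end reads, aligned them to GRCh37 with STAR and counted them on Ensembl genes with featureCounts. The deposited values are these raw counts, not normalized, of genes averaging at least 10 reads. The strand setting of the counting is not given in the sources used here. Depth was 29798442 to 45572694 reads per library, and 3 reads were taken as the floor.

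Members were found from CPM of the column sums. The members, the role groups and the gene lists were chosen with earlier results of these data known. Every member is named, with values in every library for the 12 with the highest CPM per kb of exon and for the 10 with the smallest p among those called. Counts were tested with edgeR 4.0.16 (TMM factors, quasi-likelihood F test, Benjamini-Hochberg adjustment over all genes tested) in R 4.3.3. HGV against LGV used the 6 libraries compared and genes whose mean count there was 10 or more, as did HGV against HG and LGV against LG for the listed markers and the neighbours. HG against LG and the interaction used all 12 libraries and every gene. TMM factors in the fit of HGV and LGV ran from 0.915 to 1.046. The test was first tried on simulated data with planted 2-fold changes. Between HGV and LGV it recovered 77.2% of them, and 4.4% of its calls were false. In the interaction it recovered 52.0%, and 4.6% were false. The changed genes were drawn from all genes averaging at least 10 reads, so most were not near silent without VPA. Values of some listed marker genes are not reported here.

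Alternatives were DESeq2 1.42.0 (its size factors and its Wald test), library size only, other filters, an FDR of 0.01, a replicate block, one fit of all 12 libraries, other limits for the members, and leaving out each library. Gene positions and exon lengths came from GENCODE 44 on GRCh37 and promoters from RefSeq (GRCh38.p14), matched by Ensembl identifier, symbol or older symbol. Exon overlaps also came from GENCODE 44, and may differ in the Ensembl annotation on which the authors counted the reads. Exact 95% intervals of ratios were computed from the conditional binomial. Analyses used Python 3.11.15, and plots matplotlib 3.10.9.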

Additional observations from a re-analysis of the deposited data

How the results depend on the processing

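The number of members depends on the limits. It was 16 with an upper limit of 0.1 CPM and 193 with 0.5 CPM, and 21 with a lower limit of 2 CPM and 149 with 0.5 CPM. With TMM factors in the CPM it was 57, and with each library left out in turn it was 60 to 77, with 77 without HG replicate 2. Between HGV and LGV the number called stayed within 1.5 times of 22 in every alternative, at 17 to 24 with 1 library left out (14 to 20 higher, 3 to 4 lower), and DESeq2's Wald test called the same 22 genes. The number lower in HGV went from 4 to 2 with library size only, which lost CHST11 and PURG and gained LAYN, and to 2 at an FDR of 0.01. Over the 22 called genes and 14 alternatives, 284 of 308 results kept their call, 24 lost it and none changed direction. The loss was found for C1QL4, CHST11, PURG, SLC2A12, TUBA4B and MBOAT2, and the cause was not tested. HG against LG called 2 members, 1 with DESeq2's Wald test, 1 at an FDR of 0.01, and 1 to 3 with 1 library left out. The interaction called 0 members in every alternative and with each library left out. The listed markers called numbered 24 in HG (20 to 22 with 1 library left out) and 27 in LG (19 to 28). Leaving out 1 library leaves its group with 2.

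With the replicate number as a block, 23 members were called between HGV and LGV, the 22 and LAYN, and 3 between HG and LG. Whether the numbers pair the libraries is not said in the sources used here. Deviations from a mean of 3 libraries depend on each other, so the correlations that follow cannot decide it. Across genes, which are not independent replicates, deviations of LGV and HGV libraries with the same number correlated at 0.026, 0.195 and 0.029, and those with different numbers at -0.144 to 0.102. Depth limits the untreated side, where 1 to 27 reads per gene give wide ratios.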

Other observations

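The 6 genes left out by symbol met the same limits. Their mean levels in LGV and HGV were 2.39 and 4.46 CPM for CACNA1G, a T-type calcium channel, 3.39 and 6.40 CPM for SNPH, which anchors axonal mitochondria, and 3.72 and 6.09 CPM for CHRM4, a muscarinic acetylcholine receptor. They were 1.17 and 2.59 CPM for KCNN1 and 1.67 and 2.74 CPM for KCNS3, both potassium channel subunits, and 1.39 and 3.16 CPM for the noncoding LINC00883. In all 6 the mean of the CPM, without scaling factors, was higher in HGV than in LGV, as in 44 of the 60 genes described above. The share of all genes with a higher mean in HGV was not counted. Other genes of like abundance also tended to be higher in HGV, so these counts are not a result about these genes.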
